A study of Mus musculus with 12 samples.

Results

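Matrix proteases and their tissue inhibitors were followed in the organ of Corti of clarin mutant mice. The genes were taken by symbol and comprise the matrix metalloproteinases (Mmp), the membrane-bound ADAM proteinases (Adam), the secreted ADAMTS proteinases (Adamts), the ADAMTS-like proteins (Adamtsl) and the tissue inhibitors of metalloproteinases (Timp). Of the 55348 genes counted, 78 belong to these families, with 23 MMP, 27 ADAM, 19 ADAMTS, 5 ADAMTS-like and 4 TIMP genes. RNA had been sequenced at postnatal day 21 from the organ of Corti, freed of stria vascularis and modiolus, in 3 libraries of each of 4 genotypes. Clrn1-/- mice carry a constitutive deletion of exon 4 of Clrn1, made by crossing mice with a floxed exon to PGK-cre mice. Clrn2-/- mice are homozygous for the clarinet nonsense mutation of Clrn2, and Clrn1-/-Clrn2-/- mice came from crosses of the single mutants. Wild-type mice came from breedings of their own and were not littermates, so that breeding and genotype cannot be told apart in any comparison with wild-type. The single mutants came from separate lines, and the sources do not say whether any mutant genotypes shared litters. Breeding may therefore differ between the mutants too, which also bears on the interaction. The labels do not say whether the 3 libraries came from separate animals, and p-values therefore measure the spread between these samples, which may be technical.

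Metalloproteinases of these families cut proteins outside the cell with a zinc ion in their active site. Secreted MMPs degrade collagens and other matrix proteins, membrane-type MMPs act at the cell surface and activate other MMPs, ADAM proteinases release the outer parts of membrane proteins, and ADAMTS proteinases trim procollagens or cleave proteoglycans such as aggrecan. TIMPs bind the active site and inhibit these enzymes, each with its own preferences. In the organ of Corti, cells rest on a basilar membrane and beneath a tectorial membrane, which are both extracellular matrices.

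The unit of level is the CPM, in which a gene's count is scaled by the TMM-normalized size of its library, and, where genes are compared with each other, the RPKM, which is the CPM per kilobase of exon. The libraries held 30008679 to 41049302 counts on genes, and the 78 genes made up 0.303% to 0.372% of them. With edgeR's filter on low counts, 56 of the 78 were tested among 19052 genes in all. Members count as called where the adjusted p (Benjamini-Hochberg, edgeR's quasi-likelihood test) did not exceed 0.05 and the fold reached 1.5, or 0.585 on the log2 scale. Clrn1 stood at 23.8 to 28.6 CPM in wild-type, 25.8 to 31.5 in Clrn2-/-, 2.69 to 3.04 in Clrn1-/- and 1.77 to 2.71 in Clrn1-/-Clrn2-/- libraries. Clrn2 stood at 1.89 to 3.24 CPM in wild-type, 1.04 to 1.38 in Clrn2-/- and 0.921 to 1.18 in the double mutants, but also at only 0.854 to 1.04 in Clrn1-/- libraries, so its level does not set the Clrn2 genotypes apart. Markers of hair cells summed to 855 to 1000 CPM in wild-type libraries and none of the 12 was at 0 in all libraries. Most of this sum was Pvalb, with a wild-type mean of 565 CPM, and the paper also stained primary auditory neurons for parvalbumin. One wild-type library stood apart for these families. Wild-type replicate 3 was the lowest of the wild-type libraries for 34 of the 56 tested members (60.7%), as against 31.8% of all tested genes. Calls that were lost or gained without it are named below.

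Promoters of 4 members that were higher in Clrn1-/-Clrn2-/- libraries, of which 2 code for inhibitors and 2 for MMPs, are shown first. RefSeq windows matched 48 of the 78 members. Each runs from 250 bases before to 50 bases after the gene's start on GRCm38.p6, in the direction of transcription. Timp2 (chr11:118355362-118355661, minus strand), Mmp14 (chr14:54431348-54431647, plus strand), Timp1 (chrX:20869916-20870215, plus strand) and Mmp28 (chr11:83462991-83463290, minus strand) are printed, with capitals for matches on either strand to the GC box (GGGCGG) or the CCAAT box (CCAAT).
Timp2: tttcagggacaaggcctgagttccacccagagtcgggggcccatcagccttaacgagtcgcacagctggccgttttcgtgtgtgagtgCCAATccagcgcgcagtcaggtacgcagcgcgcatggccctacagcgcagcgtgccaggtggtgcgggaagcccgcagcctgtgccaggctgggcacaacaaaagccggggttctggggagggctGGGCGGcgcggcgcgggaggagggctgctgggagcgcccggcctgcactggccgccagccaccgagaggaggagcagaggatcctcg
Mmp14: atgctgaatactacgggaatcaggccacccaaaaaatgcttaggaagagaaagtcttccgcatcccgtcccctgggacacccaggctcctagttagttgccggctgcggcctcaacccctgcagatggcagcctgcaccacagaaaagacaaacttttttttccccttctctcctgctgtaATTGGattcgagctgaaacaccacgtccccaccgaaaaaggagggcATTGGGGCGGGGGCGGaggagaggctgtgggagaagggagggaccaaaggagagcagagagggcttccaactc
Timp1: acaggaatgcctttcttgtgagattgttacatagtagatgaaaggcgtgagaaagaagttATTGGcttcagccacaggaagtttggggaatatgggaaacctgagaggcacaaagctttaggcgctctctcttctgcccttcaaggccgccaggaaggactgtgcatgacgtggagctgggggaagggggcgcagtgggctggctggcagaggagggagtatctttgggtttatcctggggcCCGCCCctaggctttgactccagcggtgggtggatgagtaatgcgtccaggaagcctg
Mmp28: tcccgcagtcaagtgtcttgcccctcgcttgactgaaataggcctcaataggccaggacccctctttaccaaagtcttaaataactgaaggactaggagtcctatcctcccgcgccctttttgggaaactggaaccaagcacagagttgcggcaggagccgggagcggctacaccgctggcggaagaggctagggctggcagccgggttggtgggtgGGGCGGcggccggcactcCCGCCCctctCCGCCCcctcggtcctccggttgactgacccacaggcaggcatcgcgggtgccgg
All 4 windows hold a GC box, with 1 match in Timp2, 2 in Mmp14, 1 in Timp1 and 3 in Mmp28, and 3 of them hold a CCAAT box, with 1 match in Timp2, 2 in Mmp14 and 1 in Timp1. In Mmp14, a CCAAT box match on the opposite strand overlaps the first of 2 neighbouring GC boxes. Among all 32851 windows, 35.7% hold a GC box and 37.4% a CCAAT box, so these matches are common. None of the 4 windows holds the letters of an AP-1 site (TGANTCA) or a TATA box (TATAAA), which occur in 7.81% and 13.6% of all windows. These matches describe the letters of the windows and no binding was measured.

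In wild-type libraries 2 of the 4 inhibitors, Timp2 and Timp3, were the most abundant of these transcripts per length, while Timp1 and Timp4 ranked 26 and 31. Timp2 was at 75.4 ± 1.44 RPKM (SD, n = 3) and Timp3, the matrix-bound inhibitor, at 62.9 ± 6.46 RPKM, and these levels differed by more than their SDs. Adam23, a catalytically inactive member with a role in neuronal adhesion, followed at 44.7 ± 3.48 RPKM, and Adam10, the sheddase of Notch and many other membrane proteins, at 41.8 ± 3.10 RPKM. These neighbours lay within the spread of their libraries. Mmp15, a membrane-type MMP, was at 36.6 ± 1.02 RPKM, Mmp2, the gelatinase that cuts type IV and denatured collagens, at 19.7 ± 1.96 RPKM and Adam9 at 16.3 ± 1.30 RPKM. Mmp14, the membrane-type MMP that activates pro-Mmp2 together with Timp2, was at 14.7 ± 1.30 RPKM. Adam15 at 12.3 ± 0.871 RPKM and Adam11, another inactive member found in neurons, at 11.8 ± 1.70 RPKM complete the 10 highest. At the other end, 9 members had no count in any library, which allows up to 3 counts or 0.0759 to 0.0983 CPM per library, counting error only, and 13 more had 1 to 46 counts over all libraries and were not tested. Those without counts were the collagenase genes Mmp1a and Mmp1b, the stromelysin Mmp10, matrilysin (Mmp7), enamelysin (Mmp20), Adam20, Adam29, Adam34 and Adam39. For 1 other collagenase, Mmp13, levels ranged from 0.127 to 0.794 CPM within wild-type alone.

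**Figure D1:**
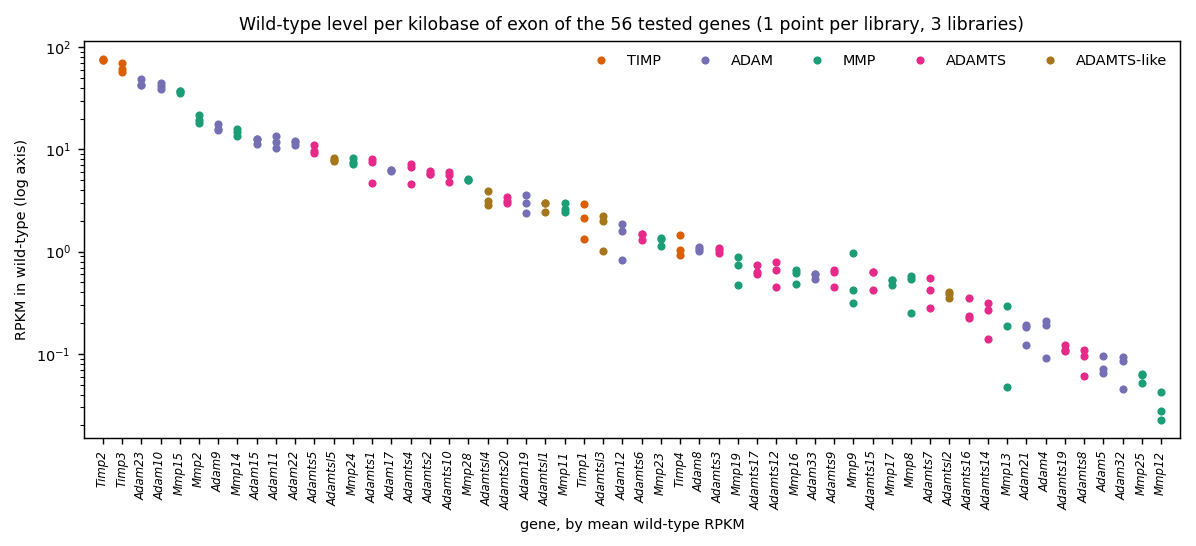
Wild-type level of the 56 tested genes in RPKM on a log axis, with 1 point for each of 3 libraries, ordered by mean and coloured by family. Timp2 and Timp3 lead at 75.4 and 62.9 RPKM, and the spread between libraries widens towards low levels.

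Summed over a family, MMP transcripts were highest in the mutants that lack Clrn1. The MMP sum was 90.8 ± 3.40 RPKM in wild-type libraries, 139 ± 11.0 in Clrn1-/-, 99.5 ± 2.28 in Clrn2-/- and 124 ± 5.02 in double mutant libraries (SD, n = 3). The TIMP sum was 142 ± 7.76 RPKM in wild-type, 145 ± 6.78 in Clrn1-/- and 140 ± 1.62 in Clrn2-/-, and 186 ± 2.52 in Clrn1-/-Clrn2-/- libraries. The inhibitors thus stood higher only in the double mutants by more than the spread between libraries. The ADAM sum was 152 ± 2.23 RPKM in wild-type libraries, 167 ± 4.98 in Clrn1-/-, 149 ± 2.05 in Clrn2-/- and 142 ± 2.22 in the double mutants, and the ADAMTS sum lay between 42.9 and 45.0 RPKM in all genotypes. These sums rest on a few abundant members and were not tested. In bulk tissue, fewer cells of a type and less RNA per cell cannot be told apart.

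Against wild-type, 7 of the 56 tested members were called in Clrn1-/-, 1 in Clrn2-/- and 8 in double mutant libraries. In Clrn1-/-, 3 members were higher (5.36%) and 4 lower (7.14%), where 3.52% of all tested genes were called higher and 3.7% lower. In Clrn2-/-, 1 member was higher (1.79%) and none lower, beside 1.24% and 1.42% of all genes. In Clrn1-/-Clrn2-/-, 5 were higher (8.93%) and 3 lower (5.36%), beside 5.88% and 4.02%. The shares in Clrn1-/- and the double mutants thus both lay somewhat above those of all genes. They rest on 7 and 8 genes, too few to read an excess from. By the adjusted p alone, 21 members differed in Clrn1-/- (37.5%, beside 26.9% of all genes), 8 in Clrn2-/- (14.3%, beside 14.2%) and 21 in Clrn1-/-Clrn2-/- (37.5%, beside 37%). The median log2 fold change of the tested members was 0.111, 0.061 and -0.003 in the 3 mutants in this order, and that of all tested genes was -0.003, -0.002 and 0.001. The 3 comparisons share the wild-type libraries.

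**Figure D2:**
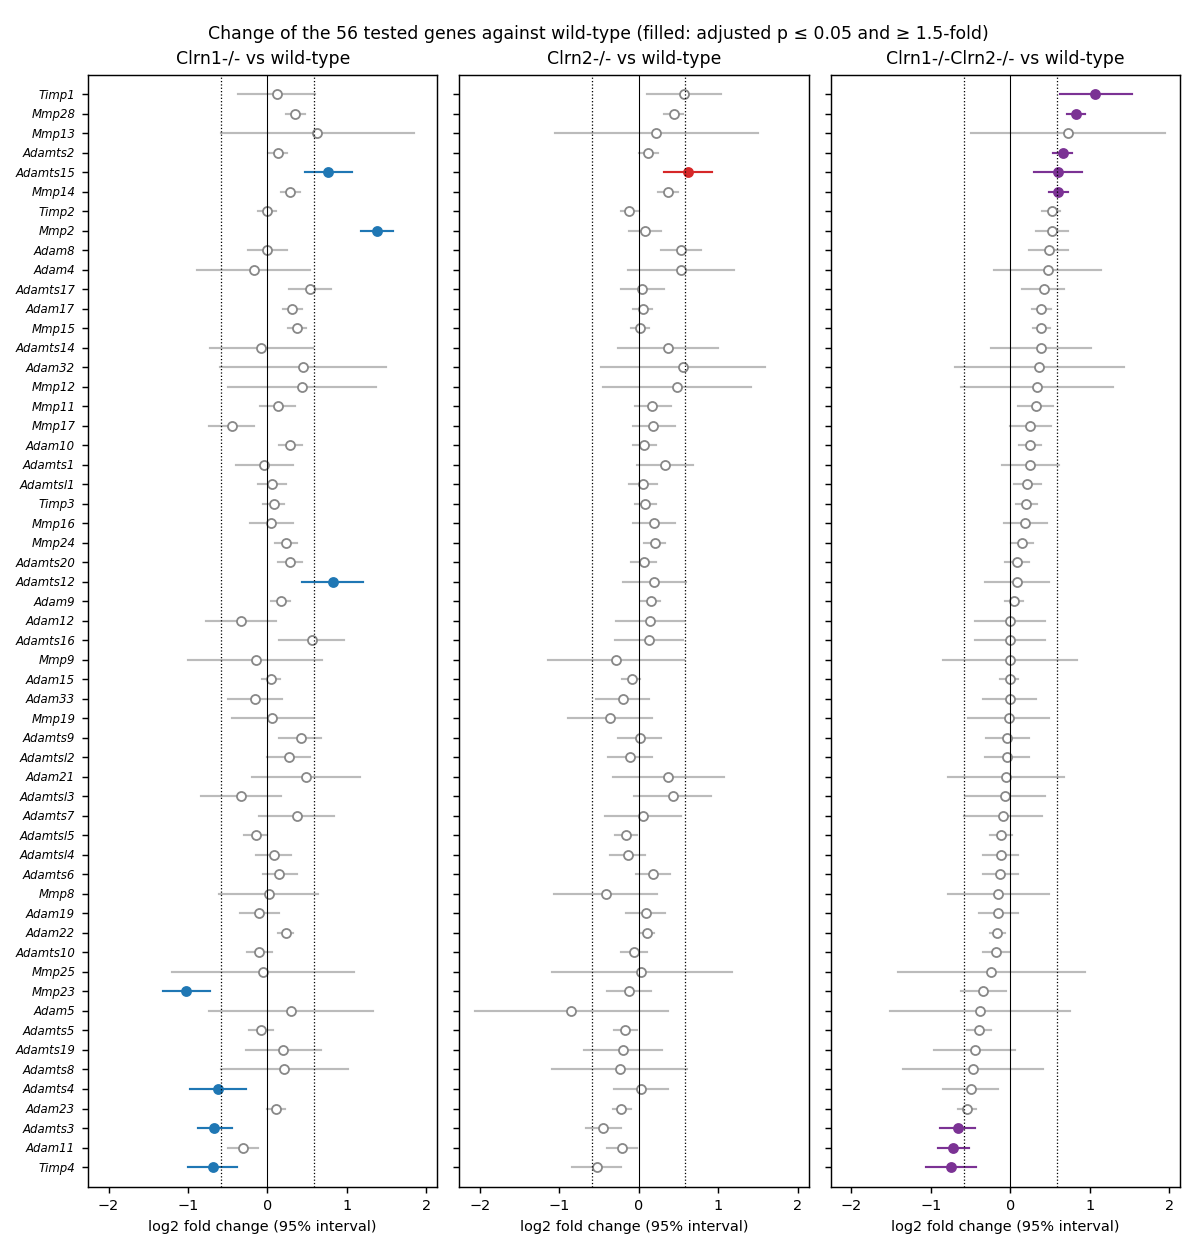
Log2 fold change against wild-type of the 56 tested members in Clrn1-/-, Clrn2-/- and Clrn1-/-Clrn2-/- libraries, with 95% intervals from edgeR's fit, ordered by the double mutant; filled points were called, and dotted lines mark 1.5-fold. There are 7, 1 and 8 filled points, and Mmp2 in Clrn1-/- lies farthest from 0, at 1.38.

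Mmp2 (ENSMUSG00000031740.8, chromosome 8, 92827291 to 92853420 of GRCm38) showed the largest change among the tested members, and it was in Clrn1-/- libraries. It stood at 73.8, 65.0 and 60.8 CPM in wild-type libraries, 203, 161 and 155 in Clrn1-/-, 66.8, 71.0 and 72.7 in Clrn2-/- and 93.9, 105 and 88.4 in double mutant libraries. Wild-type and Clrn2-/- overlapped, the double mutants lay above both and the Clrn1-/- libraries above all others. The log2 fold change was 1.38 (standard error 0.094, 2.60-fold, adjusted p = 4.5e-08, edgeR) in Clrn1-/-. In the double mutants it was 0.52 (standard error 0.094, adjusted p = 0.000361), below 1.5-fold, although leaving out wild-type replicate 1 took it to 0.60 and across that line. In Clrn2-/- it was 0.08 (95% interval -0.12 to 0.28). Mmp9, the other gelatinase and abundant in neutrophils and osteoclasts, spread from 1.11 to 3.45 CPM within wild-type and from 1.11 to 3.44 in the double mutants, and no change was detectable, with log2 fold changes of -0.15, -0.29 and -0.01 and intervals that reach at least 0.57 on either side of 0.

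Adamts12, which cleaves cartilage oligomeric matrix protein (Comp), was the other member called higher in Clrn1-/- and not in the double mutants. Its levels were 8.65, 7.26 and 4.91 CPM in wild-type libraries, 15, 12 and 9.74 in Clrn1-/-, 7.05, 9.21 and 7.50 in Clrn2-/- and 6.75, 8.26 and 6.86 in double mutant libraries. The Clrn1-/- libraries lay above all others and the remaining groups overlapped. The log2 fold change in Clrn1-/- was 0.82 (standard error 0.18, adjusted p = 0.0034, edgeR) and stayed between 0.61 and 1.01 in the alternatives. Several markers of other cells also moved in these Clrn1-/- libraries, in either direction. Macrophage markers summed to 308 to 333 CPM in them and 178 to 229 in wild-type, with 4 of 12 called higher, and neutrophil markers to 33.8 to 38.1 and 9.13 to 24.8, with 5 of 9 called higher. Bone and cartilage markers summed to 1120 to 1310 and 734 to 858 CPM, with 2 of 12 higher, and fibroblast markers to 2300 to 2560 and 1900 to 2220, with 3 of 12 higher and 1 lower. The bone and cartilage sum rested largely on Col2a1, at 849 CPM beside 540 in wild-type. The median log2 fold change of that list was 0.15, with 7 of 12 above 0. Neuron markers summed to 12100 to 12700 and 14100 to 15500 CPM, with none of 12 called. Supporting cell markers summed to 1930 to 2090 and 2370 to 2620 CPM, with 1 of 12 higher and 1 lower and a median log2 fold change of 0.12. These counts stand beside 3.52% higher and 3.7% lower among all tested genes. No marker of these lists was at 0 in every library, and their part in the change of Mmp2 and Adamts12 was not tested.

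Among the inhibitors, Timp1, the inducible secreted inhibitor, rose in the double mutants. It was at 1.91, 2.60 and 1.19 CPM in wild-type libraries, 2.09, 2.25 and 1.82 in Clrn1-/-, 2.37, 3.31 and 2.75 in Clrn2-/- and 4.16, 3.48 and 4.31 in double mutant libraries. Every double mutant library lay above every other library, while wild-type overlapped with each single mutant. In the double mutants the log2 fold change was 1.07 (standard error 0.21, 2.10-fold, adjusted p = 0.000893, edgeR) and 0.12 in Clrn1-/- (95% interval -0.37 to 0.60). In Clrn2-/- it was 0.57 (adjusted p = 0.103), and 0.86 (adjusted p = 0.0182) without wild-type replicate 2.

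Timp2, the most abundant inhibitor, was higher in the double mutants as well, by less than 1.5-fold against wild-type. Its levels were 300, 292 and 289 CPM in wild-type libraries, 315, 293 and 272 in Clrn1-/-, 289, 257 and 267 in Clrn2-/- and 415, 418 and 429 in double mutant libraries. The double mutant libraries lay far above the 9 others, among which the groups lay close together. A log2 fold change of 0.52 (standard error 0.054, 1.43-fold, adjusted p = 1.78e-06, edgeR) was found in the double mutants, of -0.12 (95% interval -0.23 to 0.00) in Clrn2-/-, and the interval in Clrn1-/- ran from -0.12 to 0.11. Timp3 stood at 496, 572 and 470 CPM in wild-type and 594, 583 and 594 in the double mutants, a log2 fold change of 0.20 (adjusted p = 0.0159) below 1.5-fold, and the single mutants overlapped with wild-type at 0.08 each. A stretch of 21.3% of the Timp3 exons lies opposite to exons of Syn3, which the stranded counts keep apart.

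Timp4 moved the other way. It was at 6.12, 8.55 and 5.47 CPM in wild-type libraries, 3.86, 4.40 and 4.21 in Clrn1-/-, 4.55, 4.41 and 4.95 in Clrn2-/- and 4.43, 3.74 and 3.84 in double mutant libraries. All 9 mutant libraries lay below all 3 wild-type libraries. Log2 fold changes were -0.69 (adjusted p = 0.00248, edgeR) in Clrn1-/-, -0.75 (adjusted p = 8e-04) in the double mutants and -0.53 (adjusted p = 0.0216) in Clrn2-/-, the last below 1.5-fold. Wild-type replicate 2 was the highest, and without it the values were -0.47 in Clrn1-/- and -0.54 in the double mutants, under 1.5-fold. Without wild-type replicate 1 or 3, the Clrn2-/- value was -0.59 or -0.66 and past the line.

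**Figure D3:**
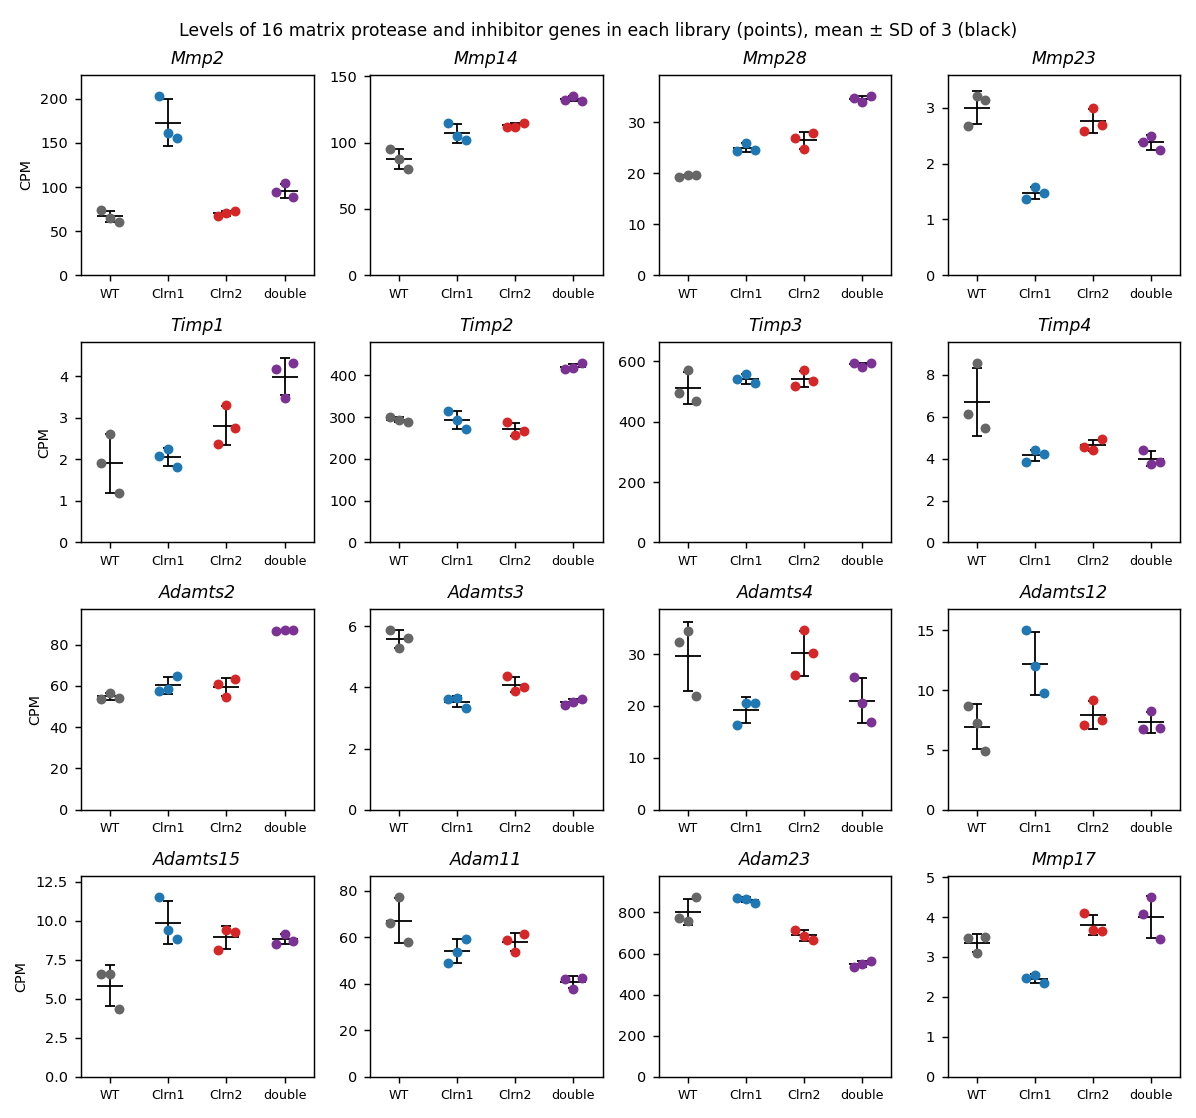
CPM of 16 members in each of 12 libraries (points; WT wild-type, Clrn1 and Clrn2 the single mutants, double Clrn1-/-Clrn2-/-), with mean ± SD of 3 in black and axes from 0. Mmp2 is highest in Clrn1-/- at 155 to 203 CPM, whereas Timp1, Timp2, Mmp14, Mmp28 and Adamts2 are highest in the double mutants.

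Among the MMPs, Mmp14 (1 of 6 tested membrane-type MMPs) and Mmp28 were called higher in the double mutants. Mmp14 was at 95.3, 87.9 and 79.8 CPM in wild-type libraries, 115, 105 and 102 in Clrn1-/-, 112, 112 and 115 in Clrn2-/- and 132, 135 and 131 in double mutant libraries. Every mutant library lay above every wild-type library and the double mutants above the single ones. In the double mutants its log2 fold change was 0.60 (standard error 0.057, adjusted p = 7.85e-07, edgeR), just past 1.5-fold, and 0.52 without wild-type replicate 3. In Clrn1-/- it was 0.29 (adjusted p = 0.00157) and in Clrn2-/- 0.37 (adjusted p = 0.000525), below 1.5-fold.

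Mmp28 (epilysin) showed the same order with less spread. It stood at 19.3, 19.6 and 19.7 CPM in wild-type libraries, 24.3, 26.0 and 24.6 in Clrn1-/-, 26.8, 24.7 and 27.9 in Clrn2-/- and 34.8, 34.0 and 35.1 in double mutant libraries. The single mutants overlapped with each other and with neither of the other groups. The log2 fold change was 0.82 (standard error 0.055, 1.77-fold, adjusted p = 1.81e-08, edgeR) in the double mutants and between 0.81 and 0.87 in all alternatives, while 0.35 in Clrn1-/- and 0.44 in Clrn2-/- stayed below 1.5-fold. Mmp15 was higher in Clrn1-/- and the double mutants, by 0.37 and 0.39 on the log2 scale (adjusted p = 9.61e-05 and 2.5e-05), under 1.5-fold.

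Mmp23, a membrane-anchored MMP, fell in Clrn1-/- libraries. It was at 2.67, 3.21 and 3.14 CPM in wild-type libraries, 1.36, 1.58 and 1.48 in Clrn1-/-, 2.58, 3.00 and 2.70 in Clrn2-/- and 2.39, 2.50 and 2.24 in the double mutants. The Clrn1-/- libraries lay below all others. The log2 fold change was -1.02 (standard error 0.14, adjusted p = 7.1e-05, edgeR), and in the double mutants -0.34 (adjusted p = 0.0579). Mmp17, a membrane-type MMP with a lipid anchor, also stood lowest in Clrn1-/-, at 2.47, 2.56 and 2.34 CPM beside 3.48, 3.10 and 3.49 in wild-type, with a log2 fold change of -0.45 (adjusted p = 0.0174) below 1.5-fold.

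The procollagen N-proteinases went in opposite directions. Adamts2, which trims fibrillar procollagens, was at 53.8, 56.8 and 54.2 CPM in wild-type libraries, 57.7, 58.4 and 64.9 in Clrn1-/-, 60.8, 54.6 and 63.2 in Clrn2-/- and 86.7, 87.0 and 87.0 in double mutant libraries. The double mutants lay well above the rest and agreed closely among themselves, with a log2 fold change of 0.66 (standard error 0.056, adjusted p = 2.06e-07, edgeR). Adamts3, which also trims procollagen and activates Vegfc, was at 5.87, 5.29 and 5.62 CPM in wild-type libraries, 3.61, 3.65 and 3.32 in Clrn1-/-, 4.36, 3.89 and 4.02 in Clrn2-/- and 3.44, 3.54 and 3.61 in the double mutants. All mutant libraries lay below wild-type, with log2 fold changes of -0.67 (adjusted p = 0.000191) in Clrn1-/-, -0.66 (adjusted p = 1e-04) in the double mutants and -0.45 (adjusted p = 0.00726, below 1.5-fold) in Clrn2-/-. Adamts3 lies 44.2 Mb from Clrn2 on chromosome 5, and any effect of that position was not tested. Adamts14, the remaining member of this class, had intervals from -0.72 to 1.01 over the 3 mutants, and no change was detectable. Fibroblast markers were higher in the double mutants, at 2630 to 2820 CPM beside 1900 to 2220 in wild-type with 3 of 12 called higher. Bone and cartilage markers summed to 1130 to 1230 beside 734 to 858 CPM, with 2 of 12 called higher and 1 lower. That sum rested largely on Col2a1, at 820 CPM beside 540 in wild-type. The median log2 fold change of the list was 0.16, with 7 of 12 above 0. Macrophage markers summed to 320 to 374 beside 178 to 229 CPM, with 8 of 12 called higher. Supporting cell markers had 4 of 12 called higher and 2 lower, and hair cell markers 3 of 12 higher and 1 lower. Among all tested genes, 5.88% were called higher and 4.02% lower. The part of these cells in the higher levels of Adamts2, Mmp14, Mmp28, Timp1 and Timp2 was not tested.

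Of the proteoglycan-cleaving ADAMTS, Adamts15 was the only member called in all 3 mutants. It was at 6.60, 6.57 and 4.33 CPM in wild-type libraries, 11.5, 9.39 and 8.83 in Clrn1-/-, 8.10, 9.43 and 9.30 in Clrn2-/- and 8.52, 9.15 and 8.74 in double mutant libraries. All 9 mutant libraries lay above wild-type and the mutants overlapped with each other. Log2 fold changes were 0.76 (adjusted p = 0.000813, edgeR), 0.62 (adjusted p = 0.0077) and 0.60 (adjusted p = 0.00322) in Clrn1-/-, Clrn2-/- and the double mutants. They rested in part on wild-type replicate 3, without which they were 0.58, 0.44 and 0.41, all below 1.5-fold, with adjusted p-values of 0.00155, 0.0184 and 0.0123. The Clrn2-/- value was 0.58 without Clrn2-/- replicate 2, and that of the double mutants 0.57 without their replicate 2.

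Adamts4 (aggrecanase-1) was lower in Clrn1-/-, at 16.3, 20.6 and 20.6 CPM beside 32.4, 34.4 and 22.0 in wild-type and 25.9, 34.6 and 30.2 in Clrn2-/-. The Clrn1-/- libraries lay below wild-type, of which replicate 3 was close to them. The log2 fold change was -0.62 (standard error 0.16, adjusted p = 0.0107, edgeR), and it fell short of the thresholds without wild-type replicate 1 (-0.55), wild-type replicate 2 (-0.50) or Clrn1-/- replicate 1 (-0.52). Over all alternatives it ran from -0.8 to -0.50. In the double mutants it was -0.50 (adjusted p = 0.0254), and -0.69 without wild-type replicate 3 and -0.66 without their replicate 1, which pass 1.5-fold. Adamts5, the other main aggrecanase, was lower in the double mutants by less than 1.5-fold, at -0.40 (adjusted p = 0.000306).

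Of the remaining ADAMTS genes, 3 lay near 1.5-fold in Clrn1-/- or in the comparison of the double mutants with Clrn1-/-. Adamts17 was at 4.94, 4.68 and 5.74 CPM in wild-type and 8.70, 6.44 and 7.25 in Clrn1-/-, a log2 fold change of 0.54 (adjusted p = 0.0045, edgeR), and 0.63 without Clrn1-/- replicate 2 or 0.62 without wild-type replicate 3. Adamts16 was at 2.39, 1.62 and 1.54 CPM in wild-type and 2.78, 3.05 and 2.31 in Clrn1-/-, where the groups overlapped. Its log2 fold change was 0.56 (adjusted p = 0.0444), and 0.78 without wild-type replicate 1 or 0.66 without Clrn1-/- replicate 3, which pass the line. Adamts7 differed between the double mutants and Clrn1-/- by -0.46 (adjusted p = 0.144), and by -0.65 (adjusted p = 0.0474) without Clrn1-/- replicate 2.

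Adam11 was the only ADAM gene called against wild-type. It stood at 66.3, 77.1 and 57.9 CPM in wild-type libraries, 48.9, 53.8 and 59.3 in Clrn1-/-, 58.8, 53.8 and 61.4 in Clrn2-/- and 42.1, 37.8 and 42.5 in double mutant libraries. The double mutants lay below all others, with a log2 fold change of -0.72 (standard error 0.092, adjusted p = 1.5e-05, edgeR). Adam23 stood at 772, 759 and 873 CPM in wild-type libraries, 871, 868 and 847 in Clrn1-/-, 717, 686 and 665 in Clrn2-/- and 536, 547 and 565 in the double mutants, a log2 fold change of -0.55 (adjusted p = 1.14e-06) in the last, and -0.59 without wild-type replicate 2. Again the double mutants were lowest, and Clrn1-/- overlapped with wild-type. Markers of neurons summed to 9430 to 9690 CPM in the double mutants beside 14100 to 15500 in wild-type, with 4 of 12 called lower and 2 higher, and their part in these changes was not tested.

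The sheddases Adam10 and Adam17 were slightly higher in the mutants without Clrn1. Adam17, which releases tumour necrosis factor and epidermal growth factor receptor ligands, was at 45.3, 44.7 and 44.1 CPM in wild-type libraries, 60.0, 53.9 and 52.5 in Clrn1-/-, 47.7, 47.2 and 43.8 in Clrn2-/- and 60.3, 59.9 and 55.2 in the double mutants. Clrn1-/- and double mutant libraries lay above wild-type and Clrn2-/-. The log2 fold changes were 0.31 (adjusted p = 0.000695, edgeR) and 0.39 (adjusted p = 4.73e-05) in Clrn1-/- and the double mutants, below 1.5-fold, and 0.05 in Clrn2-/-. Adam10 differed by 0.28 (adjusted p = 0.00516) and 0.25 (adjusted p = 0.00827) in the same mutants, and by 0.06 in Clrn2-/-. Adam8, a protease of leukocytes and osteoclasts, was higher in Clrn2-/- (0.53, adjusted p = 0.00586) and the double mutants (0.48, adjusted p = 0.00401) by less than 1.5-fold, and at 0.62 in Clrn2-/- without its replicate 2. Adam9 was at 0.17 (adjusted p = 0.0358) in Clrn1-/- and at 0.05 in the double mutants, and Adam15 within 0.09 of 0 on the log2 scale in all 3 mutants.

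Between the mutants, the double mutants were set against each single mutant to ask what the loss of the second clarin adds. Against Clrn1-/-, 3 members were higher and 4 lower, which is 5.36% and 7.14% of those tested, beside 4.62% and 2.61% of all genes, and 19 (33.9%) differed by the adjusted p alone, beside 30.4%. Timp1 (log2 fold change 0.96, adjusted p = 0.00264, edgeR), Mmp17 (0.70, adjusted p = 6e-04) and Mmp23 (0.68, adjusted p = 0.00189) were higher. Mmp2 (-0.85, adjusted p = 4.55e-06), Adamts12 (-0.74, adjusted p = 0.00522), Adam23 (-0.65, adjusted p = 3.59e-07) and Adamts19 (-0.66, adjusted p = 0.0457) were lower. Thus Mmp2 and Adamts12 were lower, and Mmp23 higher, in mice without either clarin than in mice without clarin-1 alone. Adamts12 fell short of 1.5-fold at -0.57 without Clrn1-/- replicate 1. Adamts19, at 0.688, 1.31 and 1.42 CPM in the double mutants beside 1.73 to 1.95 in Clrn1-/-, lost its call when any of 5 libraries was left out, and stood at -0.41 without double mutant replicate 1.

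Against Clrn2-/-, the double mutants had 1 member called higher (1.79%) and none lower, beside 3.67% and 1.43% of all genes. It was Timp2, with a log2 fold change of 0.63 (standard error 0.054, 1.55-fold, adjusted p = 9.35e-07, edgeR), and it kept its call in every alternative. By the adjusted p alone, 14 members (25.0%) differed, beside 27.6% of all genes. Leaving out 1 library added Adamts2 at 0.59 without Clrn2-/- replicate 3, Adamtsl3 at -0.79 without double mutant replicate 1, and Adamts4 at -0.69 without that library or -0.63 without Clrn2-/- replicate 1.

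When the single mutants were compared with each other, 2 members were higher and 4 lower in Clrn1-/- than in Clrn2-/- (3.57% and 7.14%), beside 2.4% and 2.34% of all genes, and 14 (25.0%) differed by the adjusted p alone, beside 18.5%. Mmp2 (1.30, adjusted p = 1.25e-07, edgeR) and Adamts12 (0.62, adjusted p = 0.0239) were higher in Clrn1-/-. Mmp23 (-0.90, adjusted p = 0.000437), Adamtsl3 (-0.76, adjusted p = 0.0331), Adamts4 (-0.65, adjusted p = 0.0119) and Mmp17 (-0.63, adjusted p = 0.00305) were lower. Mmp2 and Mmp23 kept their calls in all 14 alternatives. Adamtsl3, an ADAMTS-like protein without protease domain, stood at 10.3, 11.2 and 10.5 CPM in Clrn1-/-, 15, 19.4 and 19.8 in Clrn2-/- and anywhere from 7.79 to 17.3 in wild-type, and it lost its call in 7 of the 14, among them without any 1 of the Clrn1-/- libraries or Clrn2-/- replicate 2 or 3, with values of -0.69 to -0.79. Adamts12 lost its call without Clrn1-/- replicate 1 (0.46), Clrn1-/- replicate 2 (0.64, adjusted p = 0.0604), Clrn2-/- replicate 1 (0.55) or Clrn2-/- replicate 3 (0.58), Adamts4 without Clrn1-/- replicate 1 or Clrn2-/- replicate 2 (-0.55 each), and Mmp17 without Clrn2-/- replicate 1 (-0.58).

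The interaction of the genotypes tests whether losing Clrn1 had the same effect with and without Clrn2. It was called for 5 of the 56 members (8.93%), beside 5.5% of all genes, and for 12 (21.4%) by the adjusted p alone, beside 17.4%. For Mmp2, losing Clrn1 gave a log2 fold change of 1.38 with Clrn2 intact and 0.45 without it, an interaction of -0.93 (standard error 0.13, adjusted p = 0.000192, edgeR). The interaction was -0.93 (adjusted p = 0.0213) for Adamts12, -0.78 (adjusted p = 0.0116) for Adamts15 and 0.81 (adjusted p = 0.00972) for Mmp23. In these 4 genes, then, the change that came with the loss of Clrn1 was smaller where Clrn2 was lost as well. Timp2 had the opposite pattern, with no detectable change in Clrn1-/- and a higher level where both genes were lost, and an interaction of 0.64 (standard error 0.076, adjusted p = 5.06e-05). The Adamts12 interaction missed the adjusted p without Clrn1-/- replicate 1 (-0.77, adjusted p = 0.0539), Clrn2-/- replicate 2 (-0.81, adjusted p = 0.0586) or double mutant replicate 3 (-0.89, adjusted p = 0.0518). That of Timp2 was 0.58, below 1.5-fold, without Clrn1-/- replicate 3.

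**Figure D4:**
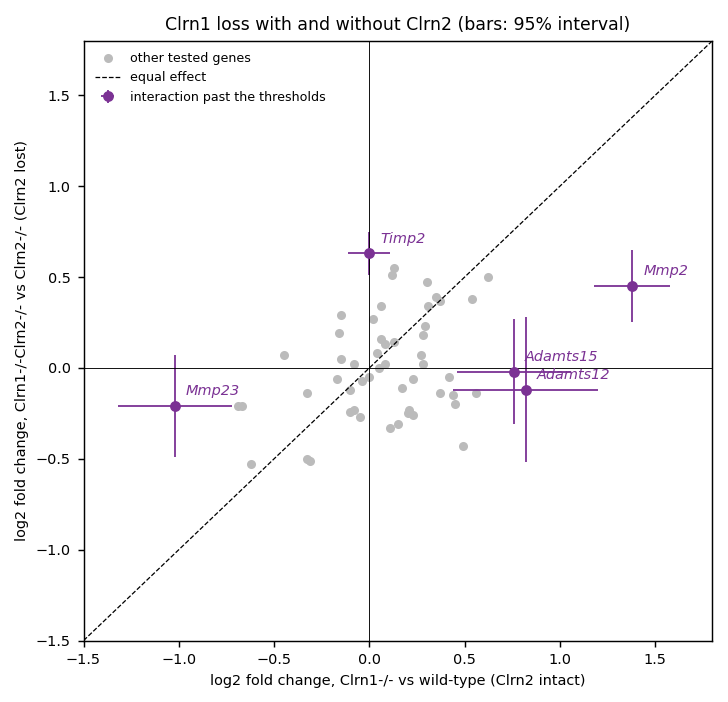
Log2 fold change with loss of Clrn1 in the presence of Clrn2 (horizontal, Clrn1-/- against wild-type) and in its absence (vertical, Clrn1-/-Clrn2-/- against Clrn2-/-) for the 56 tested members; bars are 95% intervals for the 5 called interactions and the dashed line marks equal effects. Mmp2 lies at 1.38 and 0.45, below the line, and Timp2 near 0 and at 0.63, above it.

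Other genes of extracellular proteolysis were taken from 4 lists. The counts of called genes below stand beside 3.52% higher and 3.7% lower among all tested genes in Clrn1-/-, 1.24% and 1.42% in Clrn2-/-, and 5.88% and 4.02% in the double mutants. Among 29 tested activators and inhibitors outside the families, 1 was higher and 2 lower in Clrn1-/-, 1 and 1 in Clrn2-/-, and 3 and 1 in the double mutants, with median log2 fold changes of 0.04, 0.01 and 0.13. Plau, the urokinase that generates plasmin, was at 1.07 ± 0.291 CPM in wild-type libraries, 5.04 ± 0.449 in Clrn1-/-, 1.60 ± 0.0725 in Clrn2-/- and 4.23 ± 0.233 in the double mutants, with log2 fold changes of 2.24 (adjusted p = 1.19e-07, edgeR), 0.59 (adjusted p = 0.0452) and 1.99 (adjusted p = 2.08e-07). It was the one gene of this list called higher in every mutant. A2m, a broad protease inhibitor, fell from 120 ± 20.5 CPM in wild-type to 55.7 ± 1.06, 67.7 ± 9.87 and 77.8 ± 4.85 in Clrn1-/-, Clrn2-/- and the double mutants, with log2 fold changes of -1.11, -0.83 and -0.63 (adjusted p = 1.55e-06, 7.66e-05 and 0.000149). Pcsk6, a proprotein convertase, was lower in Clrn1-/- (-0.63, adjusted p = 5.7e-06). Tspan14, a partner of Adam10, and Serping1, the C1 inhibitor, were higher in the double mutants (0.85, adjusted p = 3.62e-09, and 0.67, adjusted p = 0.000157).

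Of 27 tested matrix-processing enzymes of other families, 2 were called higher in Clrn1-/-, where 3.52% of all genes were, 1 in Clrn2-/- (1.24%) and 5 in the double mutants (5.88%), and none was called lower, with median log2 fold changes of 0.12, 0.08 and 0.20. Loxl4, a lysyl oxidase that cross-links collagen and elastin, stood at 1.16 ± 0.328 CPM in wild-type libraries, 3.58 ± 0.474 in Clrn1-/-, 3.37 ± 0.522 in Clrn2-/- and 16.5 ± 2.57 in the double mutants, with log2 fold changes of 1.63 (adjusted p = 3.13e-05, edgeR), 1.55 (adjusted p = 0.000143) and 3.84 (adjusted p = 6.28e-10). Lox itself rose from 84.4 ± 0.550 to 211 ± 10.1 CPM in the double mutants (1.32, adjusted p = 3.2e-09), and Pcolce, the enhancer of procollagen C-proteinase, from 41.8 ± 4.80 to 77 ± 2.41 CPM (0.88, adjusted p = 8.32e-08). Both act on fibrillar collagens, as does Adamts2. Cemip, which takes part in hyaluronan breakdown, was higher in Clrn1-/- (0.72, adjusted p = 0.000251).

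Substrates were called in either direction, and their counts too are to be read against the shares of all genes given above. Of 26 tested proteoglycans and matrix glycoproteins, 3 were higher and 3 lower in Clrn1-/-, 1 and none in Clrn2-/-, and 2 and 4 in the double mutants, with median log2 fold changes of 0.14, -0.04 and 0.04. Comp fell from 1.92 ± 0.260 to 0.515 ± 0.135 CPM in Clrn1-/- (-1.87, adjusted p = 3.06e-05, edgeR). Lum (lumican) was higher in Clrn1-/- and the double mutants (0.76 and 1.32, adjusted p = 1.28e-05 and 1.64e-08), and Fbn2 in all 3 mutants (0.78, 0.62 and 1.02). Bcan (brevican) and Hapln1, which occur in the matrix around neurons, were lower in the double mutants (-0.63, adjusted p = 7.78e-08, and -0.72, adjusted p = 1.18e-06). Neuron markers summed lower in the double mutants, with 4 of 12 called lower and 2 higher, and also in Clrn1-/-, with none called. Their part in these 2 changes was not tested. Among 27 tested membrane substrates of ADAM proteinases, 2 were higher in each single mutant and none lower, and 6 were higher and 1 lower in the double mutants, with medians of 0.09, 0.05 and 0.18. Sdc4, Cd44 and Egf were higher in the double mutants by 1.09, 1.19 and 1.18 on the log2 scale (adjusted p = 7.67e-10, 6.65e-09 and 2.12e-08), and Nrg1, which signals from axons to Schwann cells, was lower by -0.76 (adjusted p = 9.09e-09).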

How the data were processed

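Strand-specific poly-A libraries of 4 genotypes were aligned by the authors with STAR (version not given in the sources used here) on GRCm38.p6 with Gencode release 24, and they deposited raw counts per gene, without normalization or pooling. The column in the kit's orientation was used, which held 95.2% to 95.6% of stranded counts. Totals of unassigned reads (13.5% to 15.8%) were left out. Exon lengths and coordinates came from Gencode release 21 of the same build, and promoters from RefSeq.

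In R 4.3.3, edgeR 4.0.16 fitted all 12 libraries with genotype alone (filterByExpr minimum count 10, TMM, quasi-likelihood test, Benjamini-Hochberg over 19052 genes). The thresholds of 0.05 and 1.5-fold are the study's, whose own test was limma-voom. The fit was tested on simulated data. Counts of 30008679 or more per library put 1 count at 0.0253 to 0.0328 CPM.

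Members and lists were chosen with earlier results of these data known. Named were all Timp genes, members called in any comparison, the 10 with the highest wild-type RPKM, Mmp9, Mmp14, Adam10 and Adam17, members near 1.5-fold whose call changed, and up to 3 called genes per direction of each other list. Further members were named after their values were seen, namely Adam28, Adamts5, Adamts14 and those without counts.

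Alternatives were limma 3.58.1 (voom, with and without an FPKM of at least 0.1), DESeq2 1.42.0, library size alone, no filter, unstranded counts, the 2 groups alone, no fold minimum, a replicate block and each library left out. Deviations of libraries with the same replicate number, over 12453 genes, correlated above 0.1 in 7 of 18 pairs. All pairs of wild-type and Clrn1-/- did (0.291, 0.134 and 0.111), while those of wild-type and the double mutants ranged from -0.279 to 0.306. Pairs of unlike number were not compared and no label gives a pairing. These values therefore cannot show whether the numbers pair libraries.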

Additional observations from a re-analysis of the deposited data

Results flagged for a closer look

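For 5 members, the effect of losing Clrn1 differed between mice with and without Clrn2 by the interaction test of edgeR, with values on the log2 scale. The interaction was -0.93 for Mmp2 (adjusted p = 0.000192), -0.93 for Adamts12 (adjusted p = 0.0213), -0.78 for Adamts15 (adjusted p = 0.0116), 0.81 for Mmp23 (adjusted p = 0.00972) and 0.64 for Timp2 (adjusted p = 5.06e-05). In Mmp2, Adamts15 and Mmp23 it stayed past both thresholds in all 19 alternatives, with ranges of -1.01 to -0.80, -0.89 to -0.61 and 0.75 to 0.89. It did not in Timp2 without Clrn1-/- replicate 3 (0.58), nor in Adamts12 without Clrn1-/- replicate 1 (-0.77), Clrn2-/- replicate 2 (-0.81) or double mutant replicate 3 (-0.89).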

How the results depend on the processing

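With limma-voom (also with the FPKM filter), DESeq2, library size alone, unstranded counts or the groups alone, the counts of members called stayed within 1.5 times of those reported. With the replicate number as a block (replicate block), they were 3 higher and 4 lower in Clrn1-/- and 1 and 0 in Clrn2-/-. In the double mutants they were 5 and 3, between mutants 7, 1 and 6, and for the interaction 5, all as without it. No call changed between wild-type and Clrn1-/-. With no fold minimum, 15 members were higher in Clrn1-/-, 5 higher and 3 lower in Clrn2-/-, 14 higher and 7 lower in the double mutants, and 19, 14, 14 and 12 were called in Clrn1-/-Clrn2-/- against Clrn1-/-, against Clrn2-/-, Clrn1-/- against Clrn2-/- and the interaction. Without the filter on low counts, 3 were higher in the double mutants, since Adamts15 and Mmp14 went to 0.58 each, and Adam28, with 46 counts in all, was called in Clrn1-/- (2.21 against wild-type). When 1 library was left out, 3 to 4 members were higher and 2 to 6 lower in Clrn1-/-, 0 to 2 and 0 to 1 in Clrn2-/-, 3 to 6 and 3 to 4 in the double mutants, and 5 to 8, 1 to 3, 3 to 6 and 4 to 6 were called in the last 4 comparisons in that order. The libraries behind these ranges are named with each gene in the report, apart from further gains. Adam8 passed in Clrn1-/- against Clrn2-/- (-0.65 without Clrn1-/- replicate 2, -0.62 without Clrn2-/- replicate 2) and in the double mutants against Clrn1-/- (0.60 without Clrn1-/- replicate 2), Adamts17 at 0.59 in Clrn1-/- against Clrn2-/- without Clrn1-/- replicate 2 or Clrn2-/- replicate 3, and Adamts16 at 0.60 in Clrn1-/- with library size alone and, in the double mutants against Clrn1-/-, at -0.67 without Clrn1-/- replicate 3 or -0.75 without double mutant replicate 1. Interactions were gained by Adamts16 (-0.88 without double mutant replicate 1, -0.92 without wild-type replicate 1), Mmp17 (0.62 without double mutant replicate 3) and Timp4 (0.59 without wild-type replicate 3). The 6 lower in Clrn1-/- came without wild-type replicate 3, which added Adam12 (-0.62) and Adamtsl3 (-0.61), and the 2 without wild-type replicate 2. Adamts4 in Clrn1-/- stood at -0.58 with library size alone. Adamts19 (-0.67) and Adamtsl3 (-0.76) missed the adjusted p with DESeq2, and Adamtsl3 also with the FPKM filter (-0.75). Among the members called in the main fit, no change turned its direction. No scaling moved the median of all genes by more than 0.044. The cause of these shifts was not tested. Depth limits the low members, as 3 counts are 0.0759 to 0.0983 CPM.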
